A study of Mus musculus with 12 samples.

Results

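The genes described here encode the voltage-gated calcium and sodium channels, that is their pore-forming and auxiliary subunits. They were taken by symbol (Cacna1, Cacna2d, Cacnb1 to Cacnb4, Cacng1 to Cacng8 and the Scn genes ending in a or b), which gave 40 of the 27978 genes in the file. The data are RNA-seq levels of mouse hippocampal tissue in 12 libraries, 4 each of FMT-SP, FMT-DSS and FMT-CON. All 3 groups had received a fecal microbiota transplantation. The series' design text names a group FMT-DSS+SP where the sample titles have FMT-SP, and SP is substance P, a neuropeptide. Strain, sex and age of the mice, what CON and DSS stand for and how substance P was given are not in the labels. The labels do not say whether libraries come from different mice, and p-values measure only the spread between these libraries, which may be technical.

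Voltage-gated channels turn a change of membrane potential into a flow of ions. Sodium channels carry the upstroke of the action potential. Each has 1 large alpha subunit that forms the pore and beta subunits with an immunoglobulin-like domain that tune its gating and its place in the membrane. Calcium channels let in the calcium that releases transmitter, drives bursts of firing and signals to the nucleus. Their pores belong to the Cav1 (L-type), Cav2 (P/Q-, N- and R-type) and Cav3 (T-type) families, and the Cav1 and Cav2 pores are joined by an alpha2delta and an intracellular beta subunit. Most of the gamma subunits in brain are known instead as TARPs, partners of AMPA-type glutamate receptors.

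Levels are in FPKM, the number of fragments per 1000 bases of transcript and 1000000 mapped fragments, as deposited. Estimated totals ran from 31.5 to 37.1 (in units of 1000000 fragments) per library, so that 1 FPKM in a transcript of 2 kilobases rests on about 63 to 74.2 fragments. All 14 hippocampal markers had a mean of at least 1 FPKM, with summed levels of 323 to 345 FPKM in FMT-SP, 297 to 340 in FMT-DSS and 233 to 372 in FMT-CON. Some libraries stood apart in other markers. Mitochondrially encoded genes held 24.0% to 29.0% of the summed FPKM of the 3 libraries numbered 4, and 15.9% to 20.3% of that of the other 9. Striatum markers summed to 438 FPKM in FMT-DSS 3, and thalamus markers to 172 FPKM in FMT-CON 1 and 92.4 FPKM in FMT-SP 3. Pituitary and hypothalamus markers summed to 3582 FPKM in FMT-CON 3 and to 25.1 FPKM or less in every other library. Erythrocyte markers summed to 1337 FPKM in FMT-SP 2 and to 717 FPKM or less in every other library. In FMT-DSS 2 and FMT-DSS 4, microglia markers summed to 32.5 and 25.6 FPKM, against 57.0 to 80.1 FPKM in the other 10. Choroid plexus markers ranged from 53.9 to 4190 FPKM in FMT-SP, from 1396 to 3185 FPKM in FMT-DSS and from 61.4 to 3916 FPKM in FMT-CON.

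Of the 40 channel genes, 29 reached the mean of 1 FPKM over the 12 libraries that was needed for a test, and 11 did not. Across the 12 libraries the coefficient of variation of the 29 had a median of 16.3%, beside 16.3% over all 12559 genes tested. Among the 29, the highest library was less than 2 times the lowest in 19. In bulk tissue, fewer cells of a type and less RNA per cell cannot be told apart.

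The sodium channel pores were those of the adult brain. Scn8a, which encodes Nav1.6 of the distal axon initial segment and the nodes of Ranvier, was at 21.3, 23.3, 19.6 and 21.3 FPKM in FMT-SP 1 to 4, 22.1, 21.4, 20.5 and 20.5 FPKM in FMT-DSS 1 to 4, and 18.8, 22.4, 20.7 and 23.1 FPKM in FMT-CON 1 to 4. It was the steadiest of the 29, with a coefficient of variation of 6.29%. Scn2a encodes Nav1.2 of excitatory neurons and their unmyelinated axons, and had a like mean (20.6 FPKM, against 21.3 FPKM for Scn8a) but a wider range, 12.7 to 29.3 FPKM. Scn1a, the Nav1.1 gene best known from fast-spiking interneurons, had 9.70 to 16.2 FPKM, and Scn3a, the mainly embryonic Nav1.3 gene, 2.22 to 3.73 FPKM. Of the summed level of the 10 alpha genes, Scn8a made up 36.9%, Scn2a 34.6%, Scn1a 21.1% and Scn3a 4.90% on average. That sum was 59.7 ± 9.42 FPKM in FMT-SP, 58.6 ± 8.31 FPKM in FMT-DSS and 57.02 ± 7.18 FPKM in FMT-CON (SD, n = 4 each).

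The other 6 alpha genes were below the filter, and Scn10a among them is described after the comparisons. Scn9a, the Nav1.7 gene of pain-sensing neurons, had 0.236 to 1.06 FPKM. Scn7a, which encodes the sodium sensor Nax, had 0.184 to 0.390 FPKM. Scn4a of skeletal muscle did not exceed 0.0303 FPKM, and Scn11a, the Nav1.9 gene of sensory neurons, did not exceed 0.0252 FPKM.

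Among the sodium channel beta genes described here the order of levels was Scn3b, Scn2b and Scn4b. Scn3b, whose beta3 subunit binds the pore without a covalent bond, was at 72.9, 66.6, 62.2 and 65.9 FPKM in FMT-SP 1 to 4, 68.2, 67.6, 71.9 and 70.6 FPKM in FMT-DSS 1 to 4, and 53.4, 61.7, 73.7 and 71.8 FPKM in FMT-CON 1 to 4. Its lowest value was in FMT-CON 1. The Scn2b range of 20.2 to 64.7 FPKM overlapped with it in the upper part. Scn2b and Scn4b encode the beta subunits that are linked to the pore by a disulfide bond. Scn4b, known for high levels in striatum, was the most uneven of the 29 at 1.84 to 25.8 FPKM, a 14.0-fold range.

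In the annotation of GRCm38.p6, Scn2b and Scn4b are neighbours on chromosome 9, as are Scn10a and Scn11a. Promoter windows of these 4 genes, from RefSeq (250 bases before to 50 after the start, build GRCm38.p6, 5′ to 3′ on the gene's strand), are shown because these neighbours differ in how their levels vary between libraries. Each CG dinucleotide is in capitals.
Scn10a (chr9:119718983-119719282, strand -): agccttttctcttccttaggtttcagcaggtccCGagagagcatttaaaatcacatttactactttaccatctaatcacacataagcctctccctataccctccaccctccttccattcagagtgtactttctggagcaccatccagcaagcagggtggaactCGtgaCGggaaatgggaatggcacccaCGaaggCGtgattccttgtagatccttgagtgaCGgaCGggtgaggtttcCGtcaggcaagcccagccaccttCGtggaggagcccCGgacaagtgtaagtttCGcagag
Scn11a (chr9:119825407-119825706, strand -): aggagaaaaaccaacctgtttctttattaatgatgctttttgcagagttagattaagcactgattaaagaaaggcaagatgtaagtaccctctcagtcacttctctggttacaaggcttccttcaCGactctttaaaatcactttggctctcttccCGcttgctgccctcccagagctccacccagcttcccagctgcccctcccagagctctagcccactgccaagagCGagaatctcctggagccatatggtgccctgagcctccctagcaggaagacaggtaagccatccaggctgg
Scn2b (chr9:45117626-45117925, strand +): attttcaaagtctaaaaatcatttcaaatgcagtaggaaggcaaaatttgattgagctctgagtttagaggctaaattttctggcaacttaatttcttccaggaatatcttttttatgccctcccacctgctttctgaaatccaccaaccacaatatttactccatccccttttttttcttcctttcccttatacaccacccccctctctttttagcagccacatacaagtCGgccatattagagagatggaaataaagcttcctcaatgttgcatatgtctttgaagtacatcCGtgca
Scn4b (chr9:45138374-45138673, strand +): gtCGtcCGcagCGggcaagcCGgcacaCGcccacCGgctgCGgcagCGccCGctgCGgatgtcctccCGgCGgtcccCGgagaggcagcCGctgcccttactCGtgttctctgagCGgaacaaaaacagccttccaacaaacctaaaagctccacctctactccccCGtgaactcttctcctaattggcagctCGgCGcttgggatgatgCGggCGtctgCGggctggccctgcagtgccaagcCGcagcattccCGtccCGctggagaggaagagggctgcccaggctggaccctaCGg
The promoter set held a window for 30 of the 40 genes. Scn10a had 11 CG dinucleotides and Scn11a 3, while Scn4b had 26 and Scn2b 2. The median over all 32851 windows was 7, and 94.6% of windows held at least 1. At least 26 were found in 16.9% of windows and at least 2 in 85.9%.

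**Figure D1:**
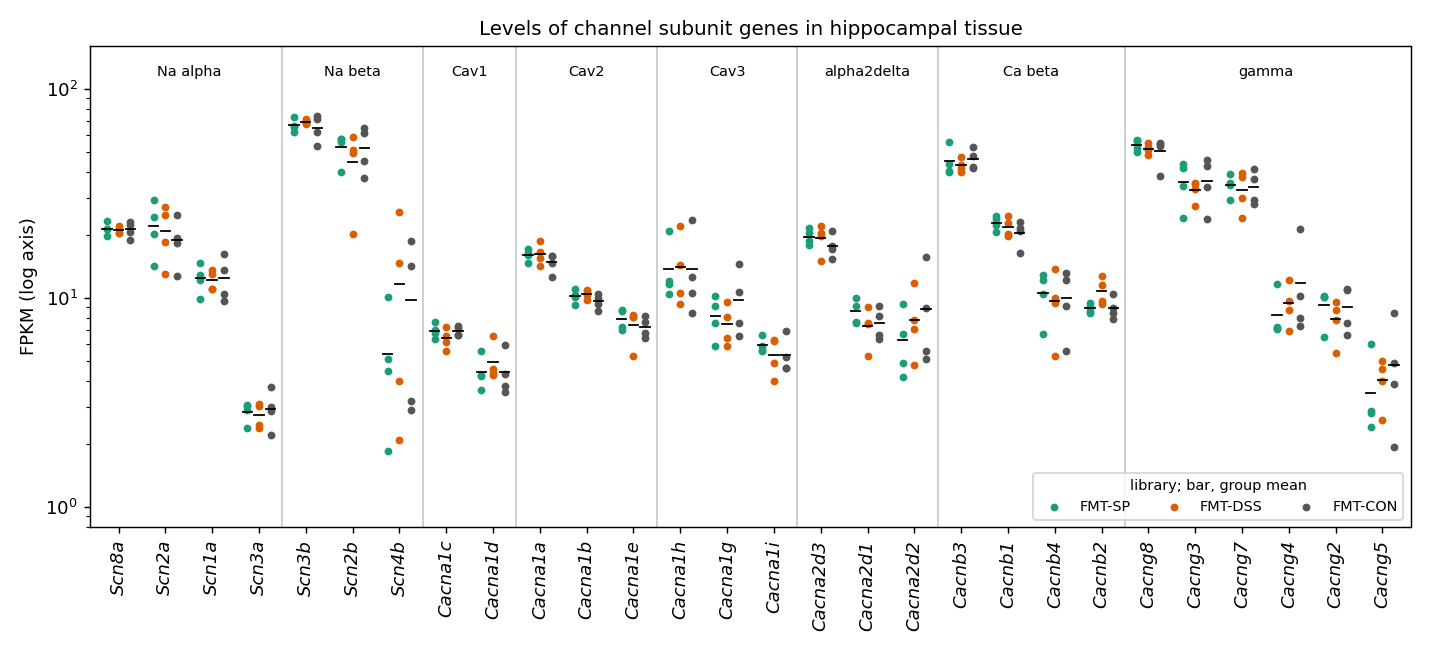
Levels of 28 tested channel genes in FPKM on a log axis, by role; each point is 1 library, black bars are group means of 4 libraries, and FMT-SP, FMT-DSS and FMT-CON stand side by side from left to right. Scn8a lies between 18.8 and 23.3 FPKM in every library, while Scn4b spreads from 1.84 to 25.8 FPKM with the groups overlapping.

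In the Cav1 family, Cacna1c, the main L-type gene of neurons (Cav1.2), was at 6.33, 6.99, 7.69 and 6.79 FPKM in FMT-SP 1 to 4, 6.14, 6.59, 7.25 and 5.58 FPKM in FMT-DSS 1 to 4, and 7.32, 7.21, 6.61 and 6.61 FPKM in FMT-CON 1 to 4. Cacna1d, which encodes Cav1.3, an L-type channel that opens at lower voltages, had 3.54 to 6.54 FPKM. The retinal gene Cacna1f and the skeletal muscle gene Cacna1s did not exceed 0.127 and 0.382 FPKM. In the Cav2 family, which opens at presynaptic terminals, Cacna1a of the P/Q-type channel was highest, at 16.4, 15.9, 14.7 and 17.02 FPKM in FMT-SP 1 to 4, 16.6, 15.5, 14.1 and 18.7 FPKM in FMT-DSS 1 to 4, and 14.7, 15.9, 12.6 and 15.8 FPKM in FMT-CON 1 to 4. Cacna1b of the N-type channel followed at 10.1, 11.02, 9.23 and 10.3 FPKM in FMT-SP 1 to 4, 10.3, 10.8, 10.9 and 9.79 FPKM in FMT-DSS 1 to 4, and 9.38, 9.98, 8.61 and 10.5 FPKM in FMT-CON 1 to 4. Every one of these values was below every library of Cacna1a. Cacna1e of the R-type channel had 5.25 to 8.73 FPKM, which overlaps with Cacna1b only at its upper end. Their mean shares of the Cav2 sum were 47.1%, 30.3% and 22.7%.

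Among the genes tested, the T-type family was the least even of the 3 pore families, with coefficients of variation up to 37.9%. The highest were 20.4% in the Cav1 family and 13.6% in the Cav2 family. Cacna1h, which encodes Cav3.2, was at 12.01, 11.7, 10.5 and 20.9 FPKM in FMT-SP 1 to 4, 9.30, 10.6, 14.4 and 22.02 FPKM in FMT-DSS 1 to 4, and 8.49, 10.6, 12.5 and 23.6 FPKM in FMT-CON 1 to 4. In each group, library 4 was the highest, at 20.9 FPKM or more, and the other 9 libraries did not exceed 14.4 FPKM. Cacna1g, which encodes Cav3.1 and is known for burst firing of thalamic relay neurons, had 5.89 to 14.4 FPKM with its highest value in FMT-CON 1. Cacna1i, the Cav3.3 gene, was at 5.87, 6.63, 5.58 and 5.61 FPKM in FMT-SP 1 to 4, 6.28, 4.85, 6.20 and 3.98 FPKM in FMT-DSS 1 to 4, and 4.61, 6.93, 4.61 and 5.18 FPKM in FMT-CON 1 to 4, with its lowest value in FMT-DSS 4. As a share of the Cav3 sum, Cacna1h ranged from 30.8% in FMT-CON 1 to 64.5% in FMT-DSS 4. Cacna1g exceeded Cacna1h in FMT-CON 1, and Cacna1h was the highest T-type gene in the other 11 libraries.

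Of the alpha2delta genes, whose products bring the channels to the membrane, Cacna2d3 was highest at 20.3, 21.5, 18.7 and 17.97 FPKM in FMT-SP 1 to 4, 22.02, 20.5, 19.8 and 14.99 FPKM in FMT-DSS 1 to 4, and 17.7, 20.8, 17.1 and 15.3 FPKM in FMT-CON 1 to 4. Cacna2d1 and Cacna2d2, whose products bind the drug gabapentin, had 5.24 to 9.99 FPKM and 4.20 to 15.6 FPKM. Cacna2d4, best known from retina, was at 0.250, 0.209, 0.810 and 0.211 FPKM in FMT-SP 1 to 4, 0.428, 0.245, 0.475 and 0.255 FPKM in FMT-DSS 1 to 4, and 1.26, 0.345, 0.302 and 0.221 FPKM in FMT-CON 1 to 4. FMT-CON 1 and FMT-SP 3, the libraries with the most thalamus markers, were the highest. Among the calcium channel beta genes, whose proteins clasp the loop between the first repeats of the pore, Cacnb3 was highest at 43.7, 40.1, 40.6 and 55.4 FPKM in FMT-SP 1 to 4, 41.6, 40.1, 43.2 and 47.4 FPKM in FMT-DSS 1 to 4, and 41.5, 41.98, 47.6 and 52.3 FPKM in FMT-CON 1 to 4. It made up 51.9% of the beta sum on average, Cacnb1 25.2%, Cacnb4 11.7% and Cacnb2 11.2%. Cacnb1 had 16.3 to 24.6 FPKM, which lies below every library of Cacnb3, and the ranges of Cacnb4 (5.26 to 13.8 FPKM) and Cacnb2 (7.89 to 12.7 FPKM) overlapped.

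Among the gamma genes, Cacng8, the TARP that is enriched in hippocampus, had the highest mean, at 56.9, 51.8, 49.7 and 56.3 FPKM in FMT-SP 1 to 4, 54.7, 52.5, 50.7 and 48.3 FPKM in FMT-DSS 1 to 4, and 38.4, 52.9, 54.8 and 54.1 FPKM in FMT-CON 1 to 4. The lowest value was in FMT-CON 1, which was also lowest in the summed hippocampal markers. There Cacng7, at 41.2 FPKM, was above Cacng8. The TARP genes Cacng3 and Cacng7 followed with 23.7 to 45.4 FPKM and 24.2 to 41.2 FPKM. Cacng4, Cacng2 (stargazin) and Cacng5, further TARP genes, had means of 9.81, 8.72 and 4.11 FPKM. Cacng1, the gamma subunit of skeletal muscle channels, and Cacng6, its close relative, did not exceed 0.343 and 0.776 FPKM. In the annotation of GRCm38.p6, Cacng7, Cacng8 and Cacng6 are neighbours on chromosome 7 and Cacng1, Cacng4 and Cacng5 on chromosome 11.

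FMT-DSS against FMT-CON asks how channel genes stood in the hippocampus of FMT-DSS mice. No channel gene passed the test. Values were compared as log2(FPKM + 1) by limma, fitted on all 12559 genes with Benjamini-Hochberg adjustment over that whole set, and changes are on that scale. Of the 29, 0 had an adjusted p under 0.05 (background 0%) and 1 had an unadjusted p under 0.05 (background 4.06%). In 0 of 29 did the 4 libraries of one group lie apart from the 4 of the other (background 1.75%). The median change was -0.0060 over the 29 and -0.035 over all genes tested, with 12 means higher and 17 lower. The 95% interval of the change lay between -1 and 1, a 2-fold change of FPKM + 1, for 28 of 29 and between -0.5 and 0.5 for 18. Scn4b was the exception, with an interval of -1.45 to 1.65.

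Cacnb2 had the smallest p. It encodes a beta subunit also known from the heart. Its levels were 9.66, 12.7, 9.31 and 11.5 FPKM in FMT-DSS 1 to 4, against 10.5, 7.89, 8.46 and 8.90 FPKM in FMT-CON 1 to 4. The FMT-DSS values were high in libraries 2 and 4 and overlapped FMT-CON in libraries 1 and 3. The change was 0.24 ± 0.11 (SE, 95% interval 0.00 to 0.49), with an unadjusted p of 0.0482 and an adjusted p = 0.966 by limma. It was 0.17 without FMT-DSS 2, and 0.084 without FMT-DSS 2 and FMT-DSS 4, the libraries with low microglia markers. Other genes, given with Scn10a below, also set these libraries apart, and the part of any of them was not tested. Cacna1g had the next smallest p, at 6.40, 5.91, 9.52 and 8.12 FPKM in FMT-DSS 1 to 4, against 14.4, 7.55, 6.55 and 10.7 FPKM in FMT-CON 1 to 4. The largest value was that of FMT-CON 1, the library richest in thalamus markers. Its change of -0.31 ± 0.23 (SE, 95% interval -0.81 to 0.18) was -0.12 without FMT-CON 1. The changes of Cacna1b, Cacna1a, Cacna1c and Scn3b, next by p, were 0.11, 0.13, -0.11 and 0.10, with adjusted p of 0.968 to 0.978 by limma. Single libraries moved each of them by over 1.5 times. Without FMT-CON 3, Cacna1b was 0.065, Cacna1a 0.060 and Scn3b 0.17, and without FMT-CON 1, Scn3b was 0.014. Without FMT-DSS 4, Cacna1a was 0.060 and Cacna1c -0.052, and without FMT-DSS 3, Cacna1c was -0.16.

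FMT-SP against FMT-DSS asks how the substance P group stood relative to FMT-DSS, and shares the FMT-DSS libraries with the comparison above. Of the 29 genes, 0 passed the adjusted threshold (background 0%), 0 had an unadjusted p under 0.05 (background 2.5%) and 0 had groups apart (background 1.27%). The median change was 0.050 over the 29 and 0.029 over all genes tested, with 19 means higher and 10 lower. It was -0.034 without FMT-DSS 2 and FMT-DSS 4. The 95% interval lay between -1 and 1 for 28 of 29, with Scn4b outside, and between -0.5 and 0.5 for 17. Cacnb2 again had the smallest p, at 9.10, 9.45, 8.69 and 8.46 FPKM in FMT-SP 1 to 4, against 9.66, 12.7, 9.31 and 11.5 FPKM in FMT-DSS 1 to 4. All 4 FMT-SP values lay between 8.46 and 9.45 FPKM, and the lowest FMT-DSS value was 9.31 FPKM. The change was -0.24 ± 0.11 (SE, 95% interval -0.48 to 0.00), with an adjusted p = 0.999 by limma, and -0.080 without FMT-DSS 2 and FMT-DSS 4.

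Cacna2d1 was at 9.99, 9.18, 7.69 and 7.57 FPKM in FMT-SP 1 to 4, against 9.04, 7.53, 7.59 and 5.24 FPKM in FMT-DSS 1 to 4, and the groups overlapped. Its change was 0.21 ± 0.16 (SE, 95% interval -0.13 to 0.56), and 0.082 without FMT-DSS 4. Scn2b was at 57.7, 57.2, 55.9 and 39.8 FPKM in FMT-SP 1 to 4, against 58.5, 49.5, 50.6 and 20.2 FPKM in FMT-DSS 1 to 4. In each group Scn2b was lowest in library 4, at 39.8 FPKM in FMT-SP, 20.2 FPKM in FMT-DSS and 37.4 FPKM in FMT-CON. The change of Scn2b was 0.32 ± 0.29 (SE, 95% interval -0.31 to 0.94), and it was -0.018 without FMT-DSS 4 and 0.48 without FMT-DSS 1. With the striatum markers as a covariate it was 0.56 ± 0.25 (SE), with an unadjusted p of 0.0453 and an adjusted p of 0.334 by limma. Over the 24 alternatives its adjusted p ran from 0.334 to 1. Cacng2 was at 10.2, 10.1, 10.1 and 6.53 FPKM in FMT-SP 1 to 4, against 9.52, 8.71, 7.84 and 5.45 FPKM in FMT-DSS 1 to 4, with the lowest value of each group in library 4. Its change was 0.21 ± 0.20 (SE, 95% interval -0.22 to 0.64), and it was 0.064 without FMT-DSS 4 and 0.35 without FMT-SP 4. FMT-SP was higher in Cacng2 at each of the 4 library numbers, and the share of all genes that do so was not counted. The replicate number was also fitted as a block, a pairing read from correlations in these same data and not from the labels. With this block the SE of Cacng2 was 0.09, with an unadjusted p of 0.0383 and an adjusted p of 0.672 by limma (0.411 to 1 over the 24 alternatives). In that fit, 1 of 29 channel genes had an unadjusted p under 0.05 (background 7.05%) and 0 an adjusted one (background 0%). The changes of Cacna1c and Cacna1i were 0.11 and 0.14. Without FMT-DSS 4 they were 0.053 and 0.035. Cacna1c was 0.16 without FMT-DSS 3 and 0.064 without FMT-SP 3, and Cacna1i was 0.22 without FMT-DSS 1. In the model without covariate or block, all of these had an adjusted p of 0.999 by limma.

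FMT-SP against FMT-CON asks whether channel levels of the substance P group differed from those of FMT-CON. Here too 0 of 29 passed (background 0%), 0 had an unadjusted p under 0.05 (background 0.358%) and 0 had groups apart (background 0.494%). The median change was 0.037 over the 29 and -0.0082 over all genes tested, with 21 means higher and 8 lower. The 95% interval lay between -1 and 1 for 27 of 29, with Scn4b and Cacna2d2 outside, and between -0.5 and 0.5 for 19. Cacnb1, a beta subunit of skeletal muscle and brain channels, had the smallest p, at 22.3, 24.6, 20.7 and 23.8 FPKM in FMT-SP 1 to 4, against 16.3, 23.1, 20.9 and 21.6 FPKM in FMT-CON 1 to 4. The low value was that of FMT-CON 1. The change was 0.16 ± 0.11 (SE, 95% interval -0.09 to 0.41) with an adjusted p = 1 by limma, and 0.060 without FMT-CON 1. Cacng4 was at 7.18, 7.27, 11.7 and 7.09 FPKM in FMT-SP 1 to 4, against 21.4, 10.2, 7.32 and 8.02 FPKM in FMT-CON 1 to 4. Its change was -0.36 ± 0.28 (SE, 95% interval -0.97 to 0.25), and -0.046 without FMT-CON 1. Cacna2d2 was at 4.89, 6.69, 9.38 and 4.20 FPKM in FMT-SP 1 to 4, against 15.6, 8.92, 5.58 and 5.08 FPKM in FMT-CON 1 to 4. Its change was -0.36 ± 0.33 (SE, 95% interval -1.08 to 0.36), and -0.064 without FMT-CON 1, -0.21 without FMT-SP 4 and -0.55 without FMT-CON 4 or without FMT-SP 3. Cacna2d3, Cacna1a and Cacna2d1 had changes of 0.14, 0.11 and 0.17. Cacna2d3 was 0.076 without FMT-CON 4 and 0.22 without FMT-CON 2, and Cacna1a was 0.047 without FMT-CON 3. Cacna2d1 was 0.096 without FMT-CON 1, 0.10 without FMT-SP 1 and 0.25 without FMT-CON 3. The adjusted p was 1 for all 6 by limma.

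**Figure D2:**
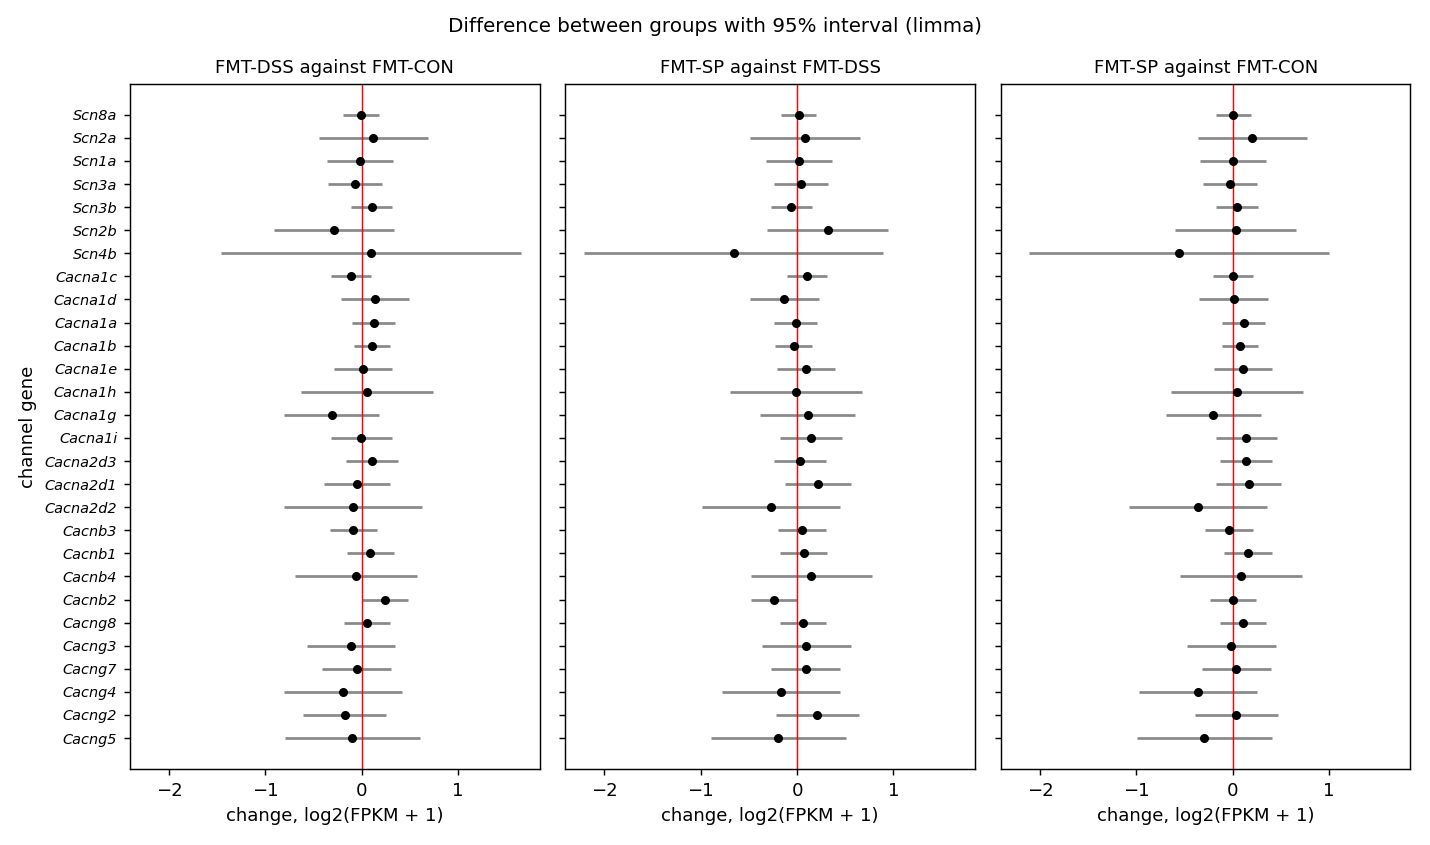
Difference of group means on the log2(FPKM + 1) scale (x axis) for 28 tested channel genes (y axis) in the 3 comparisons; points are limma estimates from 4 libraries a group and lines their 95% intervals. No gene passed the adjusted threshold, and Scn4b has the widest interval in each comparison.

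A list of 52 genes, in part for proteins that anchor, traffic or regulate these channels, was compared in the same way. It holds ankyrins, fibroblast growth factor homologous factors, calmodulins, active zone proteins and others. Also on it are AMPA receptor genes that go with the TARPs (Gria1, Gria2, Cnih2, Cnih3, Shisa9 and Gsg1l). The leak channel gene Nalcn is listed with Unc79 and Unc80. The counts are therefore not of partners of voltage-gated channels alone. In the file 51 were found and 44 could be tested. The count past the adjusted threshold was 0 of 44 in each comparison. At an unadjusted p under 0.05 there were 2 in FMT-DSS against FMT-CON (background 4.06%) and 0 in the comparisons with FMT-SP. These 2 were Calr, a calcium-binding chaperone, with a change of -0.35 ± 0.15, and Shisa9, an AMPA receptor auxiliary protein, with -0.34 ± 0.15 (SE), both with an adjusted p of 0.966 by limma. They are named because they made up the count, after their values were seen. The median changes were -0.0085 in FMT-DSS against FMT-CON, 0.11 in FMT-SP against FMT-DSS and 0.075 in FMT-SP against FMT-CON.

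One gene below the filter had groups that lay apart. Scn10a encodes Nav1.8, the sodium channel of pain-sensing neurons in the dorsal root ganglia, and is singled out here after its values were seen. It was at 0.00636, 0.0241, 0.0125 and 0.0102 FPKM in FMT-SP 1 to 4, 0.0944, 0.180, 0.0366 and 0.260 FPKM in FMT-DSS 1 to 4, and 0.0285, 0.0283, 0.0159 and 0.0165 FPKM in FMT-CON 1 to 4. All FMT-DSS values were above all values of FMT-SP and FMT-CON, with the highest in FMT-DSS 4 and FMT-DSS 2. By transcript length and estimated depth these levels stand for about 23.0, 44.7, 7.71 and 60.2 fragments in FMT-DSS 1 to 4, against 1.54 to 5.41 in FMT-SP and 3.84 to 6.94 in FMT-CON. Group means were 0.0133 ± 0.00765 FPKM in FMT-SP, 0.143 ± 0.0979 FPKM in FMT-DSS and 0.0223 ± 0.00704 FPKM in FMT-CON (SD, n = 4 each). Without overlap, FMT-DSS lay above FMT-CON in 0.572% and FMT-SP below FMT-DSS in 0.733% of all 27978 genes. FMT-DSS lay above both other groups in 0.139% of all 27978 genes, which is 39 genes.

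In a fit without the filter, Scn10a had a change of 0.16 ± 0.05 in FMT-DSS against FMT-CON and -0.17 ± 0.05 in FMT-SP against FMT-DSS (SE), with unadjusted p of 0.00662 and 0.00411. Neither passed over the 27978 genes, with adjusted p of 0.930 and 0.998 by limma. With a pseudocount of 0.01, nearer to these levels, the changes were 1.99 ± 0.55 and -2.48 ± 0.55, with adjusted p of 0.926 and 0.981 by limma. The FMT-DSS libraries are common to both comparisons. FMT-DSS 2 and FMT-DSS 4 are also the libraries with low microglia markers, and other genes set them apart too. The gene Fkbp5 was at 40.8 and 28.3 FPKM in them and did not exceed 27.5 FPKM in any other library. Erythrocyte markers summed to 588 and 717 FPKM in them, with 1337 FPKM in FMT-SP 2 and 399 FPKM or less in the rest. FMT-DSS 4 had the highest mitochondrial share, at 29.0%. FMT-DSS 1 and FMT-DSS 3 were at 0.0944 and 0.0366 FPKM, and the highest value of the other groups was 0.0285 FPKM. Between FMT-DSS 3 and that value, in FMT-CON 1, the gap is small, at 7.71 and 6.94 fragments by the same estimate. The part of any of these markers in this difference was not tested.

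Scn11a, which lies next to Scn10a on chromosome 9, did not share the pattern. It was at 0 to 0.0252 FPKM, about 4.99 fragments or fewer per library, with the groups overlapping.

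Scn4b was at 4.45, 5.12, 10.1 and 1.84 FPKM in FMT-SP 1 to 4, 14.7, 4.01, 25.8 and 2.09 FPKM in FMT-DSS 1 to 4, and 18.7, 14.1, 3.23 and 2.91 FPKM in FMT-CON 1 to 4. Within each group, values from under 4.5 FPKM to over 10 FPKM occurred, so that the groups overlapped throughout. Its level was high where striatum markers were high. Drd2, a dopamine receptor gene of striatal neurons, was at 0.540, 1.25, 4.20 and 0.763 FPKM in FMT-SP 1 to 4, 5.46, 0.733, 14.7 and 0.472 FPKM in FMT-DSS 1 to 4, and 7.97, 6.27, 1.39 and 0.727 FPKM in FMT-CON 1 to 4. FMT-DSS 3 was highest and FMT-CON 1 second in both genes, and the 5 libraries with Scn4b at 10.1 FPKM or more were the 5 with Drd2 at 4.20 FPKM or more. The striatum list of 10 genes summed to 74.1 to 149.7 FPKM in FMT-SP, 100.4 to 438 FPKM in FMT-DSS and 83.2 to 217 FPKM in FMT-CON, with none of the 10 at 0 throughout. Its part in the Scn4b values was not tested. Scn2b, the neighbour, was not high in FMT-DSS 3, at 50.6 FPKM.

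Several calcium channel genes were highest in FMT-CON 1, which had the most thalamus markers (172 FPKM in sum, with 92.4 FPKM in FMT-SP 3 and 13.3 to 45.4 FPKM in the other 10). In FMT-CON 1, Cacna1g was at 14.4 FPKM, Cacng4 at 21.4 FPKM, Cacna2d2 at 15.6 FPKM, Cacng5 at 8.42 FPKM and Cacna2d4 at 1.26 FPKM, each the highest of the 12. Cacng7, Scn1a and Scn3a were also highest in this library, at 41.2, 16.2 and 3.73 FPKM. FMT-SP 3 was second highest in Cacng5 and Cacna2d4, and came after 1 other library as well as FMT-CON 1 in Cacna1g, Cacng4 and Cacna2d2. The thalamus list summed to 13.3 to 92.4 FPKM in FMT-SP, 19.1 to 39.8 FPKM in FMT-DSS and 18.5 to 172 FPKM in FMT-CON, and none of its 7 genes was at 0 throughout. Other markers also set these libraries apart. FMT-CON 1 was highest in summed oligodendrocyte markers (2692 FPKM) and oligodendrocyte precursor markers (142 FPKM), and lowest in hippocampal markers (233 FPKM). Choroid plexus markers were highest in FMT-SP 3 (4190 FPKM), with 3916 FPKM in FMT-CON 1. The part of any of these marker lists in the channel levels was not tested.

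**Figure D3:**
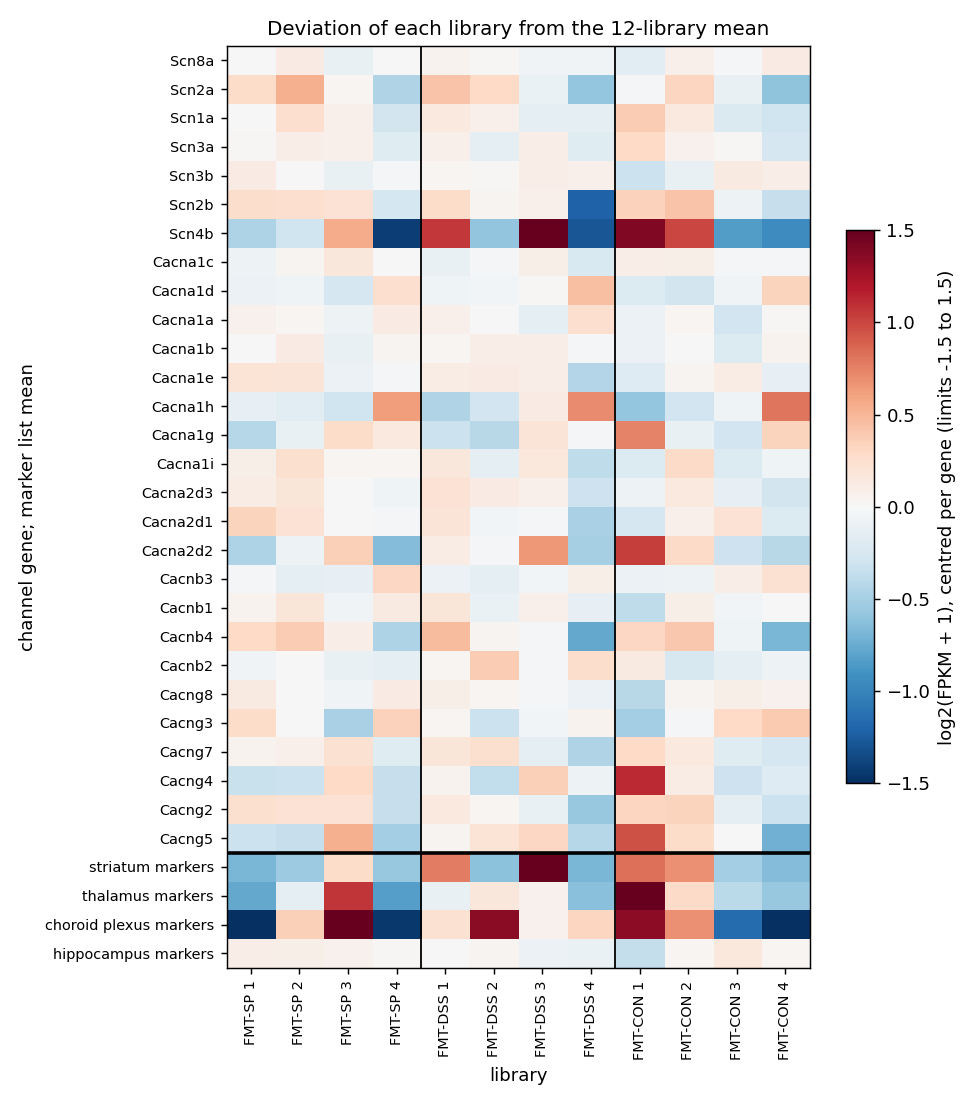
Deviation of each library from the mean of the 12 in log2(FPKM + 1), red for higher and blue for lower, for 28 tested channel genes and the means of 4 marker lists (rows); columns are the libraries of FMT-SP, FMT-DSS and FMT-CON from left to right, and colours are capped at -1.5 and 1.5. Scn4b is high in the libraries with high striatum markers, and Cacng4, Cacng5, Cacna1g and Cacna2d2 are highest in FMT-CON 1.

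**Figure D4:**
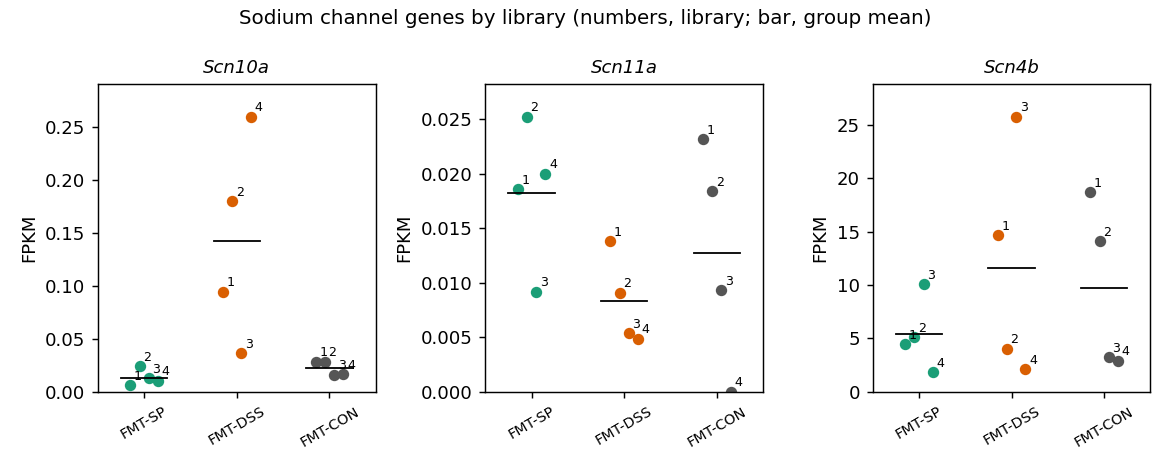
Levels in FPKM (y axis, from 0, a scale of its own in each panel) of 3 sodium channel genes in FMT-SP, FMT-DSS and FMT-CON; points are libraries with their numbers and bars are group means. Scn10a lies between 0.0366 and 0.260 FPKM in FMT-DSS and at or below 0.0285 FPKM elsewhere, whereas Scn11a and Scn4b overlap between groups.

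The libraries numbered 4, which had the high mitochondrial share, also stood apart in channel genes. In 11 of 29 channel genes all 3 of them lay outside the range of the other 9, with 3 genes higher and 8 lower, beside 26.1% of all genes tested. The direction was the same in all 3 groups for 23 of the 29 (79.3%), 7 higher and 16 lower, beside 69.8% of all genes tested. Cacna1h was 0.95 higher on the log2(FPKM + 1) scale than in the other libraries of its group, as a mean over the 3 groups. Cacna1d was 0.46 higher, at 5.55 to 6.54 FPKM against 3.54 to 4.59 FPKM in the other 9. Cacnb3 and Cacng3 were 0.28 and 0.35 higher, with ranges that overlapped those of the other 9. On the lower side, Scn4b differed by -1.62. Striatum markers summed to 82.2 to 100.4 FPKM in the libraries numbered 4, against 74.1 to 438 FPKM in the other 9, and astrocyte markers to 581 to 653 FPKM against 721 to 841 FPKM. Cacnb4 differed by -0.85, at 5.26 to 6.71 FPKM against 9.17 to 13.8 FPKM in the other 9. Scn2b was at 20.2 to 39.8 FPKM against 45.3 to 64.7 FPKM, and Scn2a at 12.7 to 14.2 FPKM against 18.3 to 29.3 FPKM.

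As a description, the difference was set against the base composition and length of the transcripts. Across the 29 genes, which share these libraries, the Pearson correlation of the difference with the GC content of the longest coding transcript was 0.37 (Spearman 0.43), and it was 0.40 (0.41) across 11700 genes tested. With transcript length the correlation was -0.04 (-0.05) across the 29 and -0.41 (-0.46) across the 11700. What the mitochondrial share, base composition, length or marker levels contributed was not tested. The libraries numbered 4 were not alike in every group. Their mitochondrial share was 24.0% in FMT-SP 4, 29.0% in FMT-DSS 4 and 27.7% in FMT-CON 4, and the difference of Scn2b was -0.50 in FMT-SP, -1.34 in FMT-DSS and -0.58 in FMT-CON. Without these 3 libraries, 0 channel genes passed in each comparison.

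**Figure D5:**
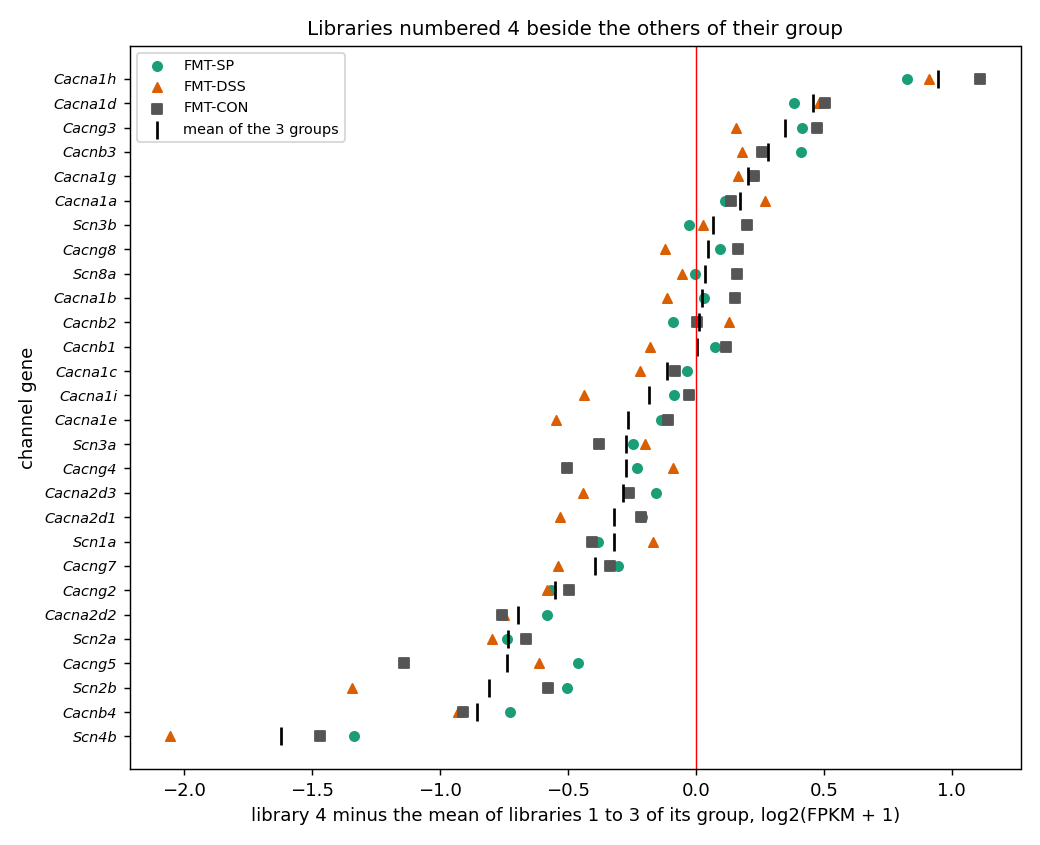
Difference between the library numbered 4 and the mean of libraries 1 to 3 of the same group in log2(FPKM + 1) (x axis) for 28 tested channel genes (y axis); symbols are FMT-SP, FMT-DSS and FMT-CON and black ticks their mean. Cacna1h is at 0.82 to 1.11 in the 3 groups, and Scn4b at -2.05 to -1.34.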

How the data were processed

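Total RNA of mouse hippocampal tissue was sequenced in 12 libraries, and groups and numbers were read from the sample titles. The deposited file gives 1 FPKM value per gene and library, computed by the authors, per the file headers. HISAT2 2.0 and the build mm8 are named in the submitters' processing notes without a role, and for the counter, annotation and filters the sources used here give nothing. The 12559 genes that averaged 1 FPKM or more were tested as log2(FPKM + 1) in 1 model of all libraries with limma 3.58.1 (trended empirical Bayes, two-sided, Benjamini-Hochberg over all genes, threshold 0.05) in R 4.3.3. The model was tested on simulated data. Libraries of the same number were checked for pairing by the correlation of their deviations from the group means. All 4 pairs were over 0.1 in FMT-SP and FMT-DSS (0.11 to 0.69), which was taken as paired, from data and not labels. Pairs ran from 0.0075 to 0.72 in FMT-DSS and FMT-CON and from -0.45 to 0.84 in FMT-SP and FMT-CON, which was not. Libraries of unlike number were not correlated, so these values cannot show that libraries were paired by number. Depth was estimated from steps of 1 fragment among low values of 4713 genes with 1 transcript in GENCODE vM21 (39.2% to 41.9% within 0.05 of a whole number, 10% by chance). GC content is of the longest coding transcript there, which that annotation gives for GRCm38 and not for mm8.

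Changes are named for the 6 members of smallest p in each comparison, and for any whose groups lie apart. Values per library are also given for the highest member of each role and for members whose highest library is at least 3 times the median and 1 FPKM. Of the 40 members, 2 are counted but not reported by name here. The members and lists were chosen with earlier results of these data known. The alternatives tried were other pseudocounts, filters and scalings, fits of 2 groups, with array weights, a replicate block or a striatum covariate, and fits without single or several libraries. The fit of Scn10a without a filter and with a pseudocount of 0.01 was chosen after seeing the data.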

Additional observations from a re-analysis of the deposited data

Results flagged for a closer look

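Of 63 sets of 4 libraries (21 genes in 3 groups), 7 had a highest or lowest library that stood far from the others of its group, a rule that chance meets in about 1 in 20 groups. That rate does not apply here, since some of these genes were picked for a change or, as Cacna2d4, for a single high library. In FMT-SP, library 4 was high in Cacna1h, at 20.9 FPKM with the next at 12.01 FPKM. The same library was low in Cacng2, at 6.53 FPKM with the next at 10.1 FPKM, and in Scn2b, at 39.8 FPKM with the next at 55.9 FPKM. FMT-SP 3 was high in Cacng4, at 11.7 FPKM with the next at 7.27 FPKM, and in Cacna2d4, at 0.810 FPKM with the next at 0.250 FPKM. In FMT-CON, library 1 was high in Cacna2d4, at 1.26 FPKM with the next at 0.345 FPKM, and low in Cacng8, at 38.4 FPKM with the next at 52.9 FPKM.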

How the results depend on the processing

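The count of channel genes past the adjusted threshold was 0 under each alternative run, in all 3 comparisons, leave-one-out fits included. The median change in FMT-SP against FMT-DSS was -0.034 without FMT-DSS 2 and FMT-DSS 4 and 0.050 with them, a shift beyond the SD between replicates of 0.077. In the same fit Scn2b turned to -0.063 and Cacna1i to -0.067. With single libraries left out, the median ran from -0.07 to 0.06 in FMT-DSS against FMT-CON, from -0.01 to 0.08 in FMT-SP against FMT-DSS and from 0.01 to 0.08 in FMT-SP against FMT-CON, and Scn2b in FMT-SP against FMT-DSS from -0.018 to 0.48. The cause was not tested. With the replicate block, 0 channel genes passed in each comparison, and 1 had an unadjusted p under 0.05 in each, against 1 in FMT-DSS against FMT-CON and 0 in the others without it; it changed no call at the adjusted threshold. Over all 24 alternatives that count ran from 0 to 2 in each comparison. In FMT-SP against FMT-CON it was 2 with array weights (Cacna1a and Cacna2d3, both with a change of 0.19). In FMT-SP against FMT-DSS it was 2 with the striatum covariate (Scn2b at 0.56 and Cacnb2 at -0.30). In FMT-DSS against FMT-CON it was 0 in fits of 2 groups, with array weights and in most fits without a library. Without the filter it was 2 in FMT-DSS against FMT-CON, 2 in FMT-SP against FMT-DSS and 1 in FMT-SP against FMT-CON. Of the alternative fits, the share of all genes at that p was counted only for the replicate block in FMT-SP against FMT-DSS (7.05%). The other counts have no background beside them, so they are not read as results about these genes. With the striatum covariate, Cacng4 and Cacna2d2 in FMT-SP against FMT-CON were -0.17 and -0.11. Genes near 0 FPKM, Scn10a among them, rest on few fragments, which limits their precision.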
